A study of Mus musculus with 5 samples.

Results

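Proteasome subunit genes were followed in murine bone marrow plasma cells (PCs), taken either after 3 days of culture or directly ex vivo. Members were the genes whose symbol in the array's platform annotation is Psm, a letter from a to g and a number. Each was represented by the probe set with the highest mean log2 value over the 5 arrays, among probe sets that carry a single gene. This gave 47 of the 18193 genes on the array, from 100 probe sets. They comprised 8 alpha and 8 beta subunits of the 20S core, 3 immunoproteasome subunits, 6 ATPases and 11 other subunits of the 19S particle, 3 chaperones of the 19S base, 3 activators, 1 inhibitor and 4 assembly chaperones of the core. An intensity of at least 50 on at least 2 arrays was required for testing, which 46 of them and 13569 genes in all reached.

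All mice were C57BL/6J, immunized with NP-CCG (the spelling of the labels) in incomplete Freund's adjuvant with 2 later boosts. BM PCs were isolated about 1 month after the last boost by magnetic depletion of cells bearing B220 or CD49b and enrichment of CD138high cells. Cultured PCs (3 arrays: 1 from experiment 1 and 2 from experiment 2) were kept with ST2 cells, a murine BM stromal cell line, and APRIL, a ligand of the PC receptor BCMA, at physiological oxygen, and were then sorted by flow cytometry. Ex vivo PCs (2 arrays: 1 from each experiment) went to RNA preparation straight after the magnetic isolation. Culture and flow sorting therefore cannot be told apart. It is not stated whether the 2 cultured arrays of experiment 2 stem from distinct cultures, and p-values measure only the spread between these arrays, some of which may be technical.

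The proteasome degrades proteins marked with ubiquitin. Its 20S core is a barrel of stacked rings, with alpha subunits at the ends and beta subunits, among them the proteases, inside. The 19S particle caps the barrel, binds and deubiquitinates the substrate, and unfolds the substrate with its ATPase ring. Interferon induces alternative proteolytic subunits, which form the immunoproteasome and favour peptides for MHC class I. PCs produce antibody at a high rate, send misfolded chains from the ER to the proteasome and are sensitive to its inhibition.

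The cells carried the transcripts of PCs on every array. Over the 8 tested members of a list of PC markers, among them Sdc1, Prdm1 and Xbp1, the summed intensity was 55738 to 57910 on cultured arrays and 58661 to 60416 on ex vivo arrays, and none passed the test of culture. Markers of stromal cells summed to 4763 to 13463 on cultured arrays and to 613 to 745 on ex vivo arrays, with 2 of 11 tested passing as higher in culture and 8 with the experiment as a block. Lum, a stromal marker, did not reach an intensity of 50 on any array. Of 7 tested macrophage markers 1 passed as lower in culture, and with the block 4 passed as lower and 1 (Cd68) as higher. With the block Cd68 differed by 0.89, and every other tested macrophage marker lay lower. These were C1qa (-2.16), C1qb (-2.28), C1qc (-1.19), Vcam1 (-1.17), Mrc1 (-1.68) and Csf1r (-0.23), the last without a call, as was C1qc. The macrophage sums overlapped, at 1440 to 1792 on cultured arrays and 1528 to 1859 on ex vivo arrays. Cd68 was the brightest of the list on every array, so the sums mostly follow Cd68. Of 2 tested T and NK cell markers, Gzma passed as lower with the block (-0.84, limma's adjusted p = 0.0404), and the list summed to 169 to 195 on cultured arrays and 229 to 288 on ex vivo arrays. Neutrophil markers summed to 292 to 324 on cultured arrays and 361 to 457 on ex vivo arrays, with 0 of 3 passing. Stromal transcripts, macrophage markers (lower apart from Cd68) and Gzma thus moved with culture, and the PC marker sum was lower on each cultured array. The part of other cell types in the values below was not tested. In bulk samples, fewer cells of a type and less RNA per cell cannot be told apart.

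On the probe sets used, nearly all proteasome genes were well above the median array intensity of 87.05 to 94.19. On the log2 scale, 45 of the 47 members lay above 8 on all 5 arrays. The other 2 are genes known from other organs. Psma8, the testis-specific alpha subunit, lay between 4.15 and 4.36 and was not tested. Psmb11, the beta subunit of the thymoproteasome of thymic cortical epithelium, lay between 5.86 and 6.09. The lowest value among the remaining members was 8.11, for Psmg4, a chaperone of core assembly. For the 26 members with several probe sets the brightest was used, whereas the array median involves no such choice. The high level is therefore partly built in by the selection. The share of all genes above 8 under the same rule was not computed. Whether the level is particular to proteasome genes was thus not tested.

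**Figure D1:**
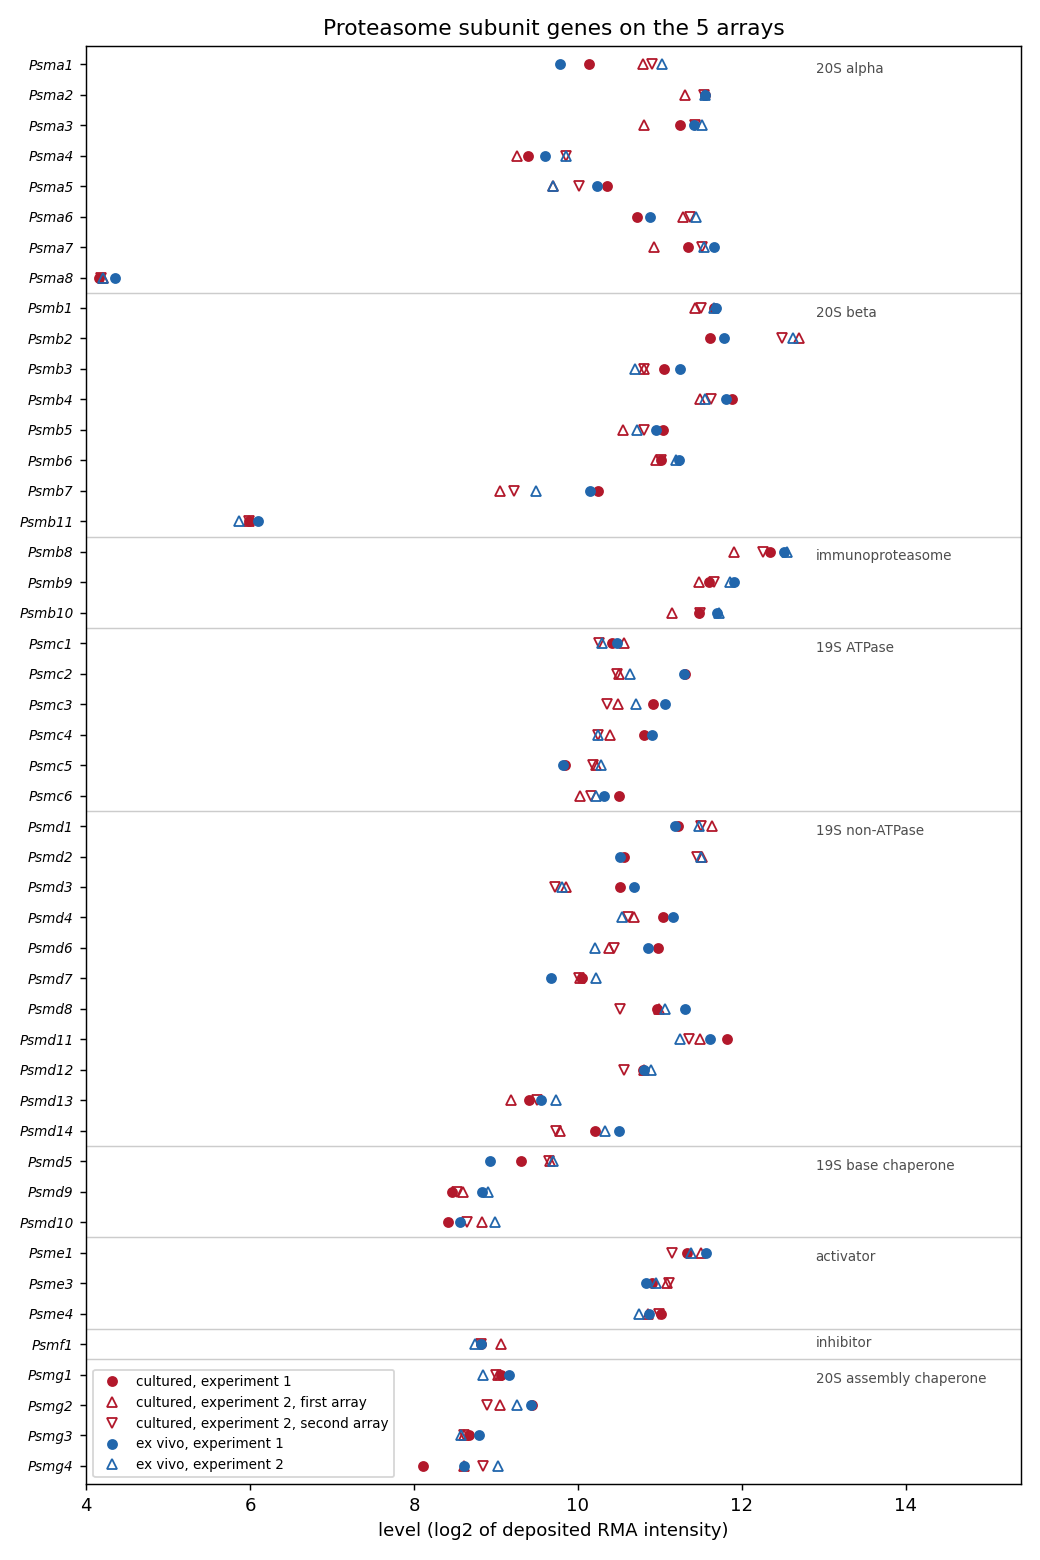
Level of each of the 47 proteasome subunit genes (log2 of the deposited intensity, horizontal axis) on the 3 cultured arrays (red) and the 2 ex vivo arrays (blue), with filled symbols for experiment 1 and open symbols for experiment 2. Psma8 and Psmb11 lie far to the left of the others, and for genes such as Psma1, Psmb2, Psmb7 and Psmd2 the symbols split by experiment rather than by culture. Levels are compared between arrays, not between genes.

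No member passed the test of culture. With culture alone in limma's model, 0 of 46 were higher and 0 were lower at an adjusted p under 0.05, against 0.0147% and 0.0442% of all genes tested. With the experiment as a block the counts were again 0 and 0, where 1.12% and 0.612% of all genes passed. At an unadjusted p under 0.05, 2 members were counted without the block (Psmd14 and Psmd9), where 6.65% of all genes were. With the block 4 were counted (Psmd14, Psmd9, Psmg4 and Psmb9), where 17.3% of all genes were, and all lay lower in culture. This direction held for the probe sets used. With the block, other probe sets of Psma1, Psma3 and Psmd11 lay higher in culture, by 0.47, 0.36 and 0.44. Others of Psme4 lay higher by 0.41 and 0.34. Each had an unadjusted p under 0.05 and an adjusted p between 0.147 and 0.210 (limma).

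The differences between cultured and ex vivo PCs were small in size. On the probe sets used, they ran from -0.51 (Psmd14) to 0.22 (Psmd5) on the log2 scale. Their median was -0.09 over the members and -0.06 over all genes tested. Other probe sets of Psma1 and Psmd11 reached 0.53 and 0.52. The 95% interval with the block lay within a 2-fold change in either direction for 46 of 46 members, and for 94.42% of all genes. It lay within a 1.5-fold change for 35 of them. Without the block, the interval lay within a 2-fold change for 39. The share of all genes was computed for neither the 35 nor the 39. The mean was lower in culture for 30 members (65.22%), where it was lower for 60.94% of all genes. For 18 members the cultured value lay below the ex vivo value in experiment 1 and on both cultured arrays of experiment 2, and for 5 (Psmd1, Psmd6, Psmd11, Psme3 and Psme4) it lay above it throughout, against 29.7% and 18.9% of all genes. The other 23 had mixed signs, with differences from -0.32 (Psmb7) to 0.22 (Psmd5). Both comparisons of experiment 2 share the same ex vivo array. For 10 members (Psma7, Psmb6, Psmb8, Psmb9, Psmb10, Psmd8, Psmd9, Psmd12, Psmd13 and Psmd14) all cultured arrays lay below both ex vivo arrays and for 0 above them, against 13.0% and 7.75% of all genes.

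The immunoproteasome subunits were all among these 10. Psmb8 replaces the protease subunit Psmb5, Psmb9 replaces Psmb6, and Psmb10 replaces Psmb7. Psmb8 had log2 values of 12.35, 11.91 and 12.26 on the cultured arrays (experiment 1, then both arrays of experiment 2), against 12.51 and 12.55 on the ex vivo arrays (experiment 1, then 2; this order holds throughout). Psmb9 had 11.60, 11.47 and 11.66 in culture, against 11.90 and 11.86 ex vivo. Psmb10 had 11.47, 11.15 and 11.49 in culture, against 11.70 and 11.73 ex vivo. The first cultured array of experiment 2 was the lowest for each, and the ex vivo arrays lay within 0.05 of each other for each. The difference was -0.36 ± 0.18 (limma's SE) for Psmb8, -0.30 ± 0.13 for Psmb9 and -0.34 ± 0.16 for Psmb10, with limma's adjusted p between 0.803 and 0.831. Their median difference was -0.34, -0.22 within experiment 1 and -0.40 within experiment 2. Without the first cultured array of experiment 2 it was -0.23.

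The constitutive partners were less even. Psmb5, the chymotrypsin-like subunit, had 11.04, 10.56 and 10.81 in culture, against 10.95 and 10.73 ex vivo. Psmb6, the caspase-like subunit, had 11.02, 10.95 and 11.02, against 11.23 and 11.19 ex vivo, so that the groups did not overlap. Psmb7, the trypsin-like subunit, had 10.24, 9.05 and 9.22, against 10.15 and 9.49 ex vivo, and split by experiment. The limma differences were -0.04 ± 0.19 for Psmb5, -0.22 ± 0.12 for Psmb6 and -0.32 ± 0.43 for Psmb7 (adjusted p between 0.849 and 0.975).

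The promoters of the pairs Psmb8 with Psmb5 and Psmb9 with Psmb6 (RefSeq, GRCm38.p6, 250 bases before to 50 after the start of the gene) are shown to set each immunoproteasome gene beside the gene whose product it replaces. Capitals mark 2 motifs searched on both strands: TGACNNNGC, the core of the antioxidant response element bound by the proteasome regulator NRF1, and the box CCAAT. Psmb8 (chr17:34197945-34198244, plus strand) holds neither motif, and Psmb5 (chr14:54617946-54618245, minus strand) holds an antioxidant response core. Psmb9 (chr17:34187281-34187580, minus strand) holds a CCAAT box on the opposite strand, and Psmb6 (chr11:70525107-70525406, plus strand) an antioxidant response core.
Psmb8: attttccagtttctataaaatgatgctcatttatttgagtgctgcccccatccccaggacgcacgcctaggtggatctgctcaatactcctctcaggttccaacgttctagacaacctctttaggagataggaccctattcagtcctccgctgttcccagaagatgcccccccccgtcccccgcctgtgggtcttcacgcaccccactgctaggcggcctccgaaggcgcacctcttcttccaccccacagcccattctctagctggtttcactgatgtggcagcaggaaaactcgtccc
Psmb5: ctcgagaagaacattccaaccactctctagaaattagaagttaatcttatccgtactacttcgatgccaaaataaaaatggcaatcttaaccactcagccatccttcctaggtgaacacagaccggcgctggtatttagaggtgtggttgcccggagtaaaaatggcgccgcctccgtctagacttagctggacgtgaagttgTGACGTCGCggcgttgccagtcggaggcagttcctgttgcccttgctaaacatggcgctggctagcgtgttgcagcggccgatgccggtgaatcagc
Psmb9: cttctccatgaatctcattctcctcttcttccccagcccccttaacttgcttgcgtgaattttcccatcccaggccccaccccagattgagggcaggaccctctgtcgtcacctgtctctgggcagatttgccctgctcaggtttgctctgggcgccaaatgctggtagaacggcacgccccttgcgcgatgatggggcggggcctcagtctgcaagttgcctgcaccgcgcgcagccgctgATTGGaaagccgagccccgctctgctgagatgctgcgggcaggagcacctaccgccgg
Psmb6: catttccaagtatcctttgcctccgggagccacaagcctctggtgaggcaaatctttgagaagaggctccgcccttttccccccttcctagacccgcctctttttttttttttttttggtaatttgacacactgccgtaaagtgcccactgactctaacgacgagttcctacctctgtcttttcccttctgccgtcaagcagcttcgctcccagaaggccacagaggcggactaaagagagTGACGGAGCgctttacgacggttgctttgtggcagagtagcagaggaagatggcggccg

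Across the family, 41 promoters of 39 members were matched. An antioxidant response core was found in 6 of them (14.6%: Psmb5, Psmb6, Psmc6, Psmd12, Psmd9 and Psme4), against 12.4% of all 32851 promoters of the same length, and a CCAAT box in 14 (34.1%), against 37.4%. Psmb10 held neither motif, and no promoter of Psmb7 was matched. A match is a description of the letters and not a binding site.

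The balance of each pair was taken as the difference of their log2 values on an array, which shows unequal change and not which protein is more abundant. Psmb8 minus Psmb5 was 1.31, 1.35 and 1.45 in culture, against 1.56 and 1.82 ex vivo, a difference of -0.32 in which the groups did not overlap. Psmb9 minus Psmb6 was 0.58, 0.52 and 0.64, against 0.67 and 0.67 ex vivo, a difference of -0.09, also without overlap. Psmb10 minus Psmb7 was 1.24, 2.10 and 2.27, against 1.55 and 2.23 ex vivo, a difference of -0.02 (-0.16 with the block, -0.31 within experiment 1 and -0.05 within experiment 2). The exact two-sided permutation test gave p = 0.1 for Psmb8 over Psmb5, p = 0.2 for Psmb9 over Psmb6 and p = 1 for Psmb10 over Psmb7, and 0.1 is the smallest p that 3 against 2 arrays allow. The last balance was 0.81 higher in experiment 2 than in experiment 1.

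**Figure D2:**
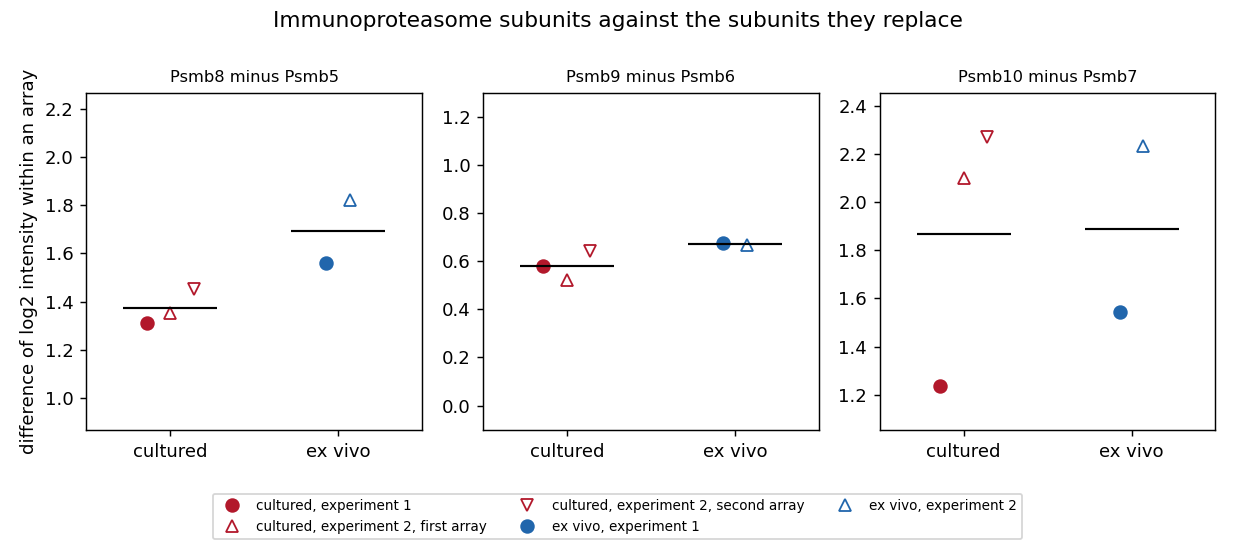
Difference of log2 intensity between an immunoproteasome subunit and the subunit it replaces, within each array (vertical axis, the same span in each panel), for cultured (red) and ex vivo PCs (blue), with horizontal lines at group means. For Psmb8 minus Psmb5 the 3 cultured arrays (1.31 to 1.45) lie below both ex vivo arrays (1.56 and 1.82), for Psmb9 minus Psmb6 they lie just below them (0.52 to 0.64, against 0.67 and 0.67), whereas Psmb10 minus Psmb7 splits by experiment.

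Among the alpha subunits, which form the gate of the core, 7 were tested and their median difference was -0.08. Psma7 had 11.34, 10.93 and 11.51 in culture, against 11.66 and 11.53 ex vivo, a difference of -0.34 ± 0.21 (limma's adjusted p = 0.860). Psma3 had 11.24, 10.81 and 11.43, against 11.42 and 11.51 ex vivo, a difference of -0.31 ± 0.22 (adjusted p = 0.879). A second tested probe set of Psma3 gave 0.37. On the probe sets used for Psma7 and Psma3, the first cultured array of experiment 2 was by far the lowest. The other cultured array of that experiment lay close to its ex vivo counterpart. The cultured arrays of experiment 2 were 0.62 apart for Psma3, 0.59 for Psma4 and 0.58 for Psma7, all lower on the first. Over the family, this gap between arrays of a single condition and experiment exceeded the culture difference (with the block) in 24 of 46 members. That share was not computed over all genes. The median size of the gap was 0.14 over the members and 0.13 over all genes tested. For the culture difference with the block, the median size was 0.13 and 0.14.

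The other beta subunits had differences around 0, with a class median of -0.06 over the 8 tested outside the immunoproteasome. Psmb1, a structural beta subunit, had 11.66, 11.43 and 11.50 in culture, against 11.69 and 11.66 ex vivo, a difference of -0.15 ± 0.14 (limma's adjusted p = 0.909). Psmb1 and Psmb6 were the only tested beta members outside the immunoproteasome that lay lower in both experiments and on every cultured array, and none lay higher throughout.

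In the 19S particle the ATPases (Psmc genes) had a median difference of -0.07. Of the 6, Psmc3 alone had the same sign in all comparisons within experiments, with 10.92, 10.49 and 10.36 in culture, against 11.06 and 10.70 ex vivo, and a difference of -0.29 ± 0.23 (limma's adjusted p = 0.889). The 11 non-ATPase subunits also had a median of -0.07 (0.01 with the block), but they held the member that lay lowest. Psmd14, the deubiquitinase that strips ubiquitin chains from substrates, had 10.21, 9.78 and 9.73 in culture, against 10.50 and 10.33 ex vivo. Its difference was -0.51 ± 0.20 without the block (limma's adjusted p = 0.753) and -0.46 ± 0.12 with it (adjusted p = 0.134). All 3 cultured arrays lay below both ex vivo arrays.

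Psmd8, a lid subunit, had 10.97, 10.98 and 10.51 in culture, against 11.30 and 11.06 ex vivo, a difference of -0.36 ± 0.20 (limma's adjusted p = 0.851), and here the second cultured array of experiment 2 was the low one. Higher values in culture were smaller on the probe sets used. Psmd11, also a lid subunit, had 11.82, 11.49 and 11.35, against 11.61 and 11.24 ex vivo, a difference of 0.13 ± 0.21 (adjusted p = 0.937). Psmd1, a scaffold subunit of the base, had 11.22, 11.64 and 11.50, against 11.18 and 11.48 ex vivo, a difference of 0.12 ± 0.19 (adjusted p = 0.934). Both lay above the ex vivo array of their own experiment throughout, while their groups overlapped. Psmd2, another scaffold of the base, and Psmd4, a ubiquitin receptor, had differences of 0.17 and -0.07, and of 0.01 each with the block.

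Of the chaperones that assemble the base, Psmd9 had 8.46, 8.60 and 8.53 in culture, against 8.83 and 8.90 ex vivo, so that the cultured values lay lower by a similar amount in experiment 1 (-0.37) and experiment 2 (-0.30 and -0.37). It came to -0.34 ± 0.13 (limma's adjusted p = 0.743) without the block and -0.35 ± 0.11 (adjusted p = 0.175) with it, and a second tested probe set of the gene gave -0.04. Psmd10, known as gankyrin, had 8.41, 8.83 and 8.64, against 8.56 and 8.99 ex vivo, with a difference of -0.15 ± 0.21 (adjusted p = 0.930). Of the core's assembly chaperones, Psmg4 had 8.11, 8.61 and 8.84, against 8.61 and 9.03 ex vivo, so each cultured array lay below its own ex vivo array while the groups overlapped. Its difference was -0.30 ± 0.27 (adjusted p = 0.907) without the block and -0.39 ± 0.13 (adjusted p = 0.203) with it.

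The activators open the core without the 19S particle. Psme3, the nuclear member of the family, had 10.90, 11.08 and 11.11 in culture, against 10.82 and 10.96 ex vivo. Psme4 had 11.02, 10.86 and 10.98, against 10.86 and 10.74 ex vivo. Both lay above the ex vivo array of their own experiment on each cultured array, by 0.07 to 0.24, with differences of 0.14 ± 0.14 and 0.15 ± 0.13 and overlapping groups (limma's adjusted p = 0.909 and 0.903). Psme1, induced by interferon like the immunoproteasome subunits, had 11.33, 11.50 and 11.15, against 11.57 and 11.38 ex vivo, and the cultured arrays of experiment 2 lay on either side of their ex vivo array. The inhibitor Psmf1 differed by 0.12.

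**Figure D3:**
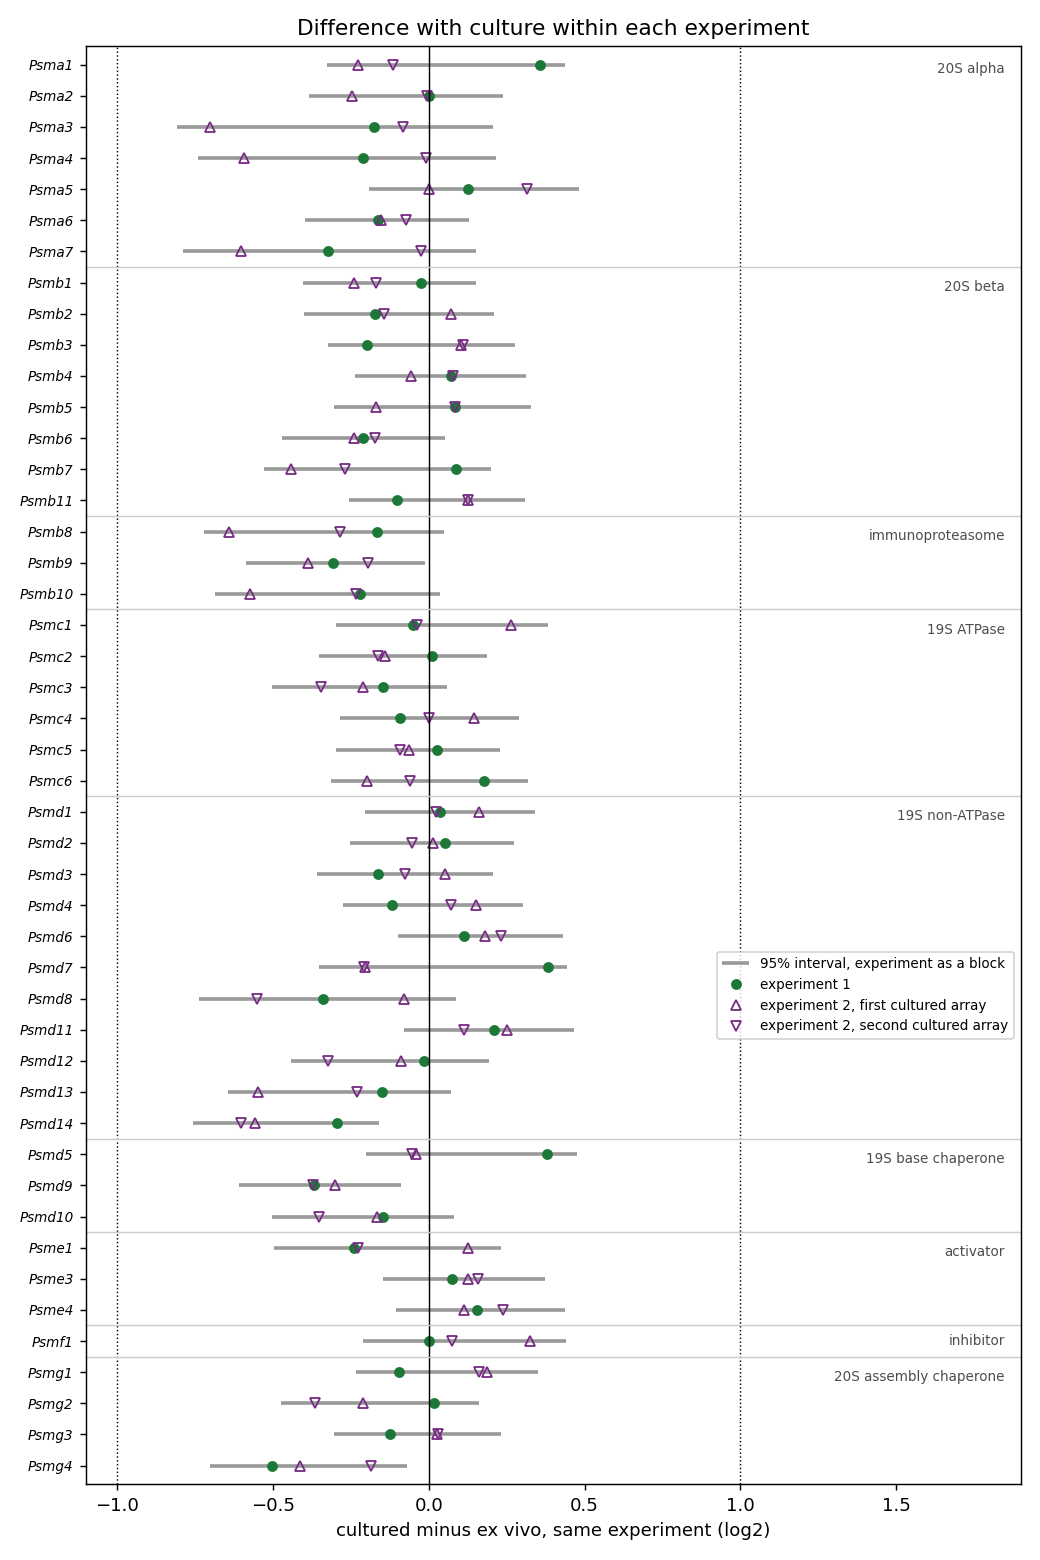
Cultured minus ex vivo log2 intensity of the 46 tested members (horizontal axis; dotted lines mark a 2-fold change), within experiment 1 (green) and for each cultured array of experiment 2 against the ex vivo array of that experiment (purple). Grey bars are 95% intervals of limma's difference with the experiment as a block, which all lie between the dotted lines. The 3 immunoproteasome genes, Psmd14 and Psmd9 are among the 18 members that lie left of 0 in each comparison (29.7% of all genes do).

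The experiment separated proteasome genes more than culture did, as it did all genes tested. With culture in the model, 7 members were higher in experiment 2 than in experiment 1 (Psma1, Psma6, Psmb2, Psmc5, Psmd2, Psmd5 and Psmg4), and 8 were lower (Psma5, Psmb7, Psmc2, Psmc3, Psmc4, Psmd3, Psmd4 and Psmd6), at limma's adjusted p under 0.05, where 11.0% and 14.1% of all genes passed. Both counts were 0 when any 1 of the ex vivo array of experiment 1, that of experiment 2 and the cultured array of experiment 1 was left out. They were 3 and 4 when the second cultured array of experiment 2 was left out. The share of all genes was not computed for fits with an array left out, which also have fewer degrees of freedom. Such counts therefore cannot show whether the loss of calls is particular to the members. The experiment accounted for 69.5% of the members' sum of squares and culture for 14.01%, against 50.3% and 32.9% over all genes tested. For 26 members the arrays of experiment 2 lay all above or all below those of experiment 1 (49.0% of all genes), and the experiment difference exceeded the culture difference in 30 of 46 (65.22%, and 65.41% of all genes).

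Subunits of a single subcomplex went opposite ways between experiments. Psmd2 had 11.52 and 11.45 in culture and 11.50 ex vivo in experiment 2, against 10.56 in culture and 10.51 ex vivo in experiment 1. On the probe sets used, this was the largest difference of the family at 0.95 ± 0.11 (limma's adjusted p = 0.00492). Psmb2 was higher by 0.92 ± 0.12 and Psma1 by 0.94 ± 0.15 (adjusted p = 0.00699 and 0.0115). In contrast, Psmb7 had 9.05 and 9.22 in culture and 9.49 ex vivo in experiment 2, against 10.24 in culture and 10.15 ex vivo in experiment 1, a difference of -0.91 ± 0.15 (adjusted p = 0.0110). Psmd3, a lid subunit, and the ATPase Psmc2 differed by -0.79 and -0.75, while the ATPase Psmc5 differed by 0.40.

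The direction between experiments also depended on the probe set. Of the 22 members with more than 1 tested probe set, 6 had the same sign on all of them (Psma1, Psmc2, Psmc4, Psmd4, Psme3 and Psmg3). A shared sign did not mean a similar size. Psmc2 had -0.75 on the probe set used and -0.02 and -0.28 on the others. Psmd4 had -0.49 on the one used and -0.04 and -0.03 on the others. Psmc4 had -0.56 on the one used and -1.29 on the other. The 7 tested probe sets of Psmd11 ran from -0.39 to 1.70. Psmb1, Psmd7 and Psmd11 each had another probe set that passed the test in the opposite direction from the one used. Of the members that passed on the probe set used, Psma5, Psma6 and Psmd6 had another of opposite sign that did not pass. These other probe sets gave 0.19, -0.34 and 0.05. For Actb, the 3' control probe set minus the 5' one on the log2 scale, a measure of transcript integrity, lay between -0.12 and -0.01 in experiment 2, and was 0.77 in culture and 0.31 ex vivo in experiment 1. For Gapdh it lay between 0.28 and 0.34 in experiment 2, and was 0.63 in culture and 0.74 ex vivo in experiment 1. The part of transcript integrity in the differences between experiments was not tested.

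**Figure D4:**
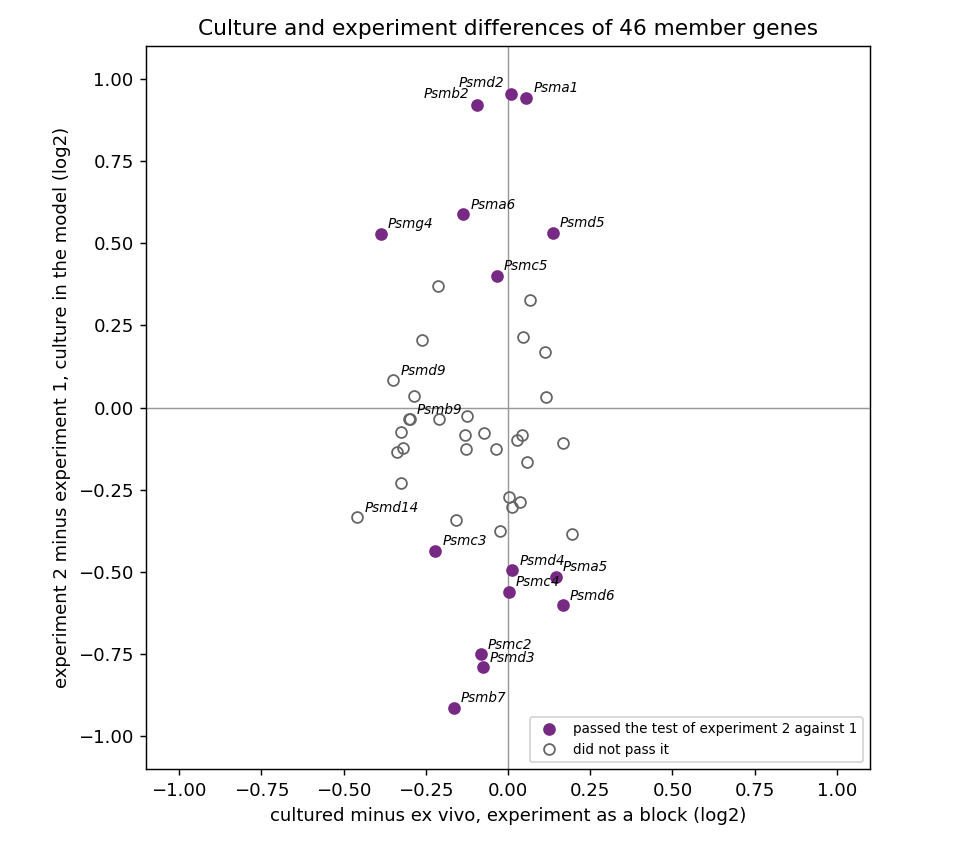
Experiment 2 minus experiment 1 (vertical axis, culture in the model) against cultured minus ex vivo (horizontal axis, experiment as a block), both limma log2 differences on the same scale, for the 46 tested members. The 15 genes that passed the experiment test (filled) reach from -0.91 to 0.95 on the vertical axis, whereas no gene lies beyond -0.46 to 0.19 on the horizontal axis.

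Whether the culture difference itself differed between experiments was tested as an interaction, which has 1 residual degree of freedom. No member passed (limma's adjusted p under 0.05 in 0 of 46 and an unadjusted p under 0.05 in 1), where 0.00% of all genes had an adjusted and 5.73% an unadjusted p under 0.05. The 1 was Psmd7, a lid subunit, with 10.05, 10.02 and 10.01 in culture, against 9.67 and 10.22 ex vivo. Its 3 cultured arrays lay close together between the ex vivo arrays, so that culture differed by 0.38 in experiment 1 and by -0.21 and -0.21 in experiment 2. Psmd5, a chaperone of the base, had the same signs, with 0.38 in experiment 1 and -0.04 and -0.05 in experiment 2.

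Genes that work with the proteasome gave no call for culture either. Of the 12 tested partners outside the Psm symbols, 0 passed in either direction without or with the block, and Rad23b, a shuttle for ubiquitinated proteins, had the largest difference at -0.43. Of 7 tested genes of the NRF1 pathway 0 passed. The largest was Maff, a small MAF protein, with 8.93, 9.22 and 9.31 in culture, against 8.27 and 8.74 ex vivo. All its cultured arrays lay above both ex vivo arrays. Its difference was 0.65 without the block (limma's adjusted p = 0.655) and 0.59 with it (adjusted p = 0.0741). Nfe2l1, which encodes NRF1 itself, had 10.79, 9.82 and 10.00 in culture, against 10.03 and 9.95 ex vivo, where the cultured array of experiment 1 alone lay apart. Uba6, which activates ubiquitin, was the only tested gene of its list and differed by 0.10.

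Of 11 tested genes of p97-driven retrotranslocation from the ER 0 passed, and Syvn1, the ER ubiquitin ligase HRD1, had the largest difference at -0.58. It also passed as lower in experiment 2 than in experiment 1, with a difference of -1.33 (limma's adjusted p = 0.00792). Among 11 genes of MHC class I antigen processing, which use the peptides of the immunoproteasome, 0 passed, and the largest difference was -0.42 for Tap2, a peptide transporter subunit encoded in the MHC region, as are Psmb8 and Psmb9. Tap2 had 10.53, 9.99 and 9.83 in culture, against 10.72 and 10.34 ex vivo. Among 11 regulators in interferon signalling 0 passed, and Irf7 had the largest difference at -0.58, with 8.03, 8.29 and 7.98 in culture, against 8.89 and 8.48 ex vivo.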

How the data were processed

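RNA of cultured (n = 3) and ex vivo (n = 2) PCs, grouped by the labels, was hybridized to Affymetrix mouse arrays. The authors processed raw signals with the affy package and RMA, and the submitters' notes also name GCOS. Tool versions and a genome build were not given in the sources used here. Each deposited value is an RMA intensity on a linear scale, converted here to log2. Depth does not apply to arrays, and their number limits the precision. RMA equalizes the arrays' distributions, so a change shared by most genes would not be seen.

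From 45101 probe sets, 64 controls were removed. Of the remainder, 34945 carry 1 gene symbol, 932 several and 9160 none listed. Psme2 appears only on a probe set shared with Psme2b and is no member. An intensity of 50 or more on 2 or more arrays was reached by 30477 probe sets, on which lmFit and eBayes of limma 3.58.1 were run in R 4.3.3, with Benjamini-Hochberg adjustment over all of them. Following the methods, which name no covariate, the model held culture alone, with the experiment as a block beside it. Samples were taken as paired by experiment number, which both groups share in the labels, and deviations from the group means correlated at 0.749, 0.558 and 0.719. All-gene values use the brightest probe set per gene.

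The step was checked on simulated data with known changes, each larger than any culture difference of a member. The check concerned the estimated size of a change, not the power to detect changes as small as those seen here. The members and lists were chosen with earlier results of these data known. Values on each array are given for the catalytic beta genes, the activators and, per class, up to 2 members with the largest difference in each direction among those with the same sign on every cultured array. Others named were chosen after their values were seen. Figures were drawn with matplotlib. Alternatives were the block, averaging, filter, normalization, moderation, the probe set rule and leaving out arrays. Protein sequences were not analysed here, and 1 planned promoter motif is not reported here.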

Additional observations from a re-analysis of the deposited data

How the results depend on the processing

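The 14 alternatives with a test gave no called member for culture in either direction, and the lowest adjusted p of a named member was 0.134 (limma, Psmd14 with the experiment as a replicate block). This block, and the mean of the paired cultured arrays of experiment 2 with or without it, turned the difference of Psmb5 to 0.011, 0.020 and 0.020. Of the 46 tested members 7 turned sign under the block, Psmd4 to 0.013 among them, as did the 19S non-ATPase median, to 0.0096. It changed no call. Within experiment 1, Psmb5 and Psmb7 differed by 0.084 and 0.088. The mean over all probe sets of a gene turned Psma3 to 0.029 and moved the activator median to 0.061. Averaging the paired arrays left 4 members higher in experiment 2.

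Leaving out single arrays gave 0 to 5 members higher and 0 to 6 lower in experiment 2. Medians ran from -0.157 to -0.052 over all members, from -0.317 to -0.098 for alpha genes, from -0.163 to 0.044 for beta genes, from -0.254 to 0.061 for ATPases and from -0.195 to 0.017 for 19S non-ATPase genes. Psmb10 over Psmb7 ran from -0.365 to 0.324, Psmg4 from -0.505 to -0.092, Psmc3 from -0.475 to -0.114, Psmb5 from -0.158 to 0.083, Psmb7 from -0.685 to 0.012, Psmd1 from -0.024 to 0.269, Psmd10 from -0.367 to 0.067 and Psmd11 from -0.056 to 0.314. That balance, Psmd11 and Psmd10 turned sign without the ex vivo array of experiment 2, and the balance and Psmd11 also without the cultured array of experiment 1. Psmb5, Psmb7, Psmd1 and the beta and ATPase medians turned sign without the ex vivo array of experiment 1, and Psmb5 also without the first cultured array of experiment 2. The cause was not tested. The interaction could not be fitted with an array left out or with the paired arrays averaged. Precision is limited by having 5 arrays, and the intervals with the block allow changes of up to 2-fold.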

Other observations

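Some probe sets close to the family lay outside its rule. The probe set shared by Psme2 and Psme2b, which stands for the partner of Psme1 in the interferon-inducible activator, had log2 values of 11.64, 10.74 and 11.58 in culture (experiment 1, then both arrays of experiment 2), against 11.71 and 11.64 ex vivo. Its difference was -0.36 (limma's adjusted p = 0.901), and the first cultured array of experiment 2 lay apart. Psme3ip1, a protein that binds Psme3, had 8.62, 8.77 and 8.71 in culture, against 8.71 and 8.90 ex vivo. The 2 probe sets of Psmc3ip, a recombination factor named for its binding to Psmc3, differed by -0.23 and 0.17 with culture (adjusted p = 0.867 and 0.951).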
